A study of Mus musculus with 90 samples.

Results

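The genes described here encode the enzymes and regulators of sterol and fatty acid synthesis. They were taken from a list of 32 symbols and matched by Ensembl identifier to rows of the gene count table, where all 32 were found among 53697 genes. Mammalian cells build cholesterol from acetyl-CoA through mevalonate, farnesyl diphosphate, squalene and lanosterol, and build fatty acids from the same precursor through malonyl-CoA. Both branches are switched on by the sterol regulatory element-binding proteins SREBP1 (gene Srebf1) and SREBP2 (Srebf2). When membrane cholesterol is low the escort protein SCAP carries these factors from the endoplasmic reticulum to the Golgi for cleavage, and when it is high the INSIG proteins hold SCAP back.

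The list was divided by role. Acat2 to Fdft1 cover the mevalonate steps up to squalene (Acat2, Hmgcs1, Mvk, Pmvk, Mvd, Idi1, Fdps and Fdft1), and a second group covers squalene to cholesterol (Sqle, Lss, Cyp51, Tm7sf2, Msmo1, Nsdhl, Hsd17b7, Ebp, Sc5d and Dhcr7). Fatty acid synthesis was represented by Acly, Acaca, Fasn and the elongase Elovl6, and desaturation by Scd1, Scd2, Fads1 and Fads2. The regulators were Srebf1, Srebf2, Scap, Insig1 and Insig2, listed together with the cholesterol carrier Stard4.

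The study asked how the transcriptome of tumour cells differs between no, short-term and long-term exposure to interferon γ (IFNγ), the cytokine that T cells use to act on tumours. YUMM2.1, a mouse melanoma line, and CT26, a mouse colorectal carcinoma line, were kept with 50 IU/mL IFNγ or with bovine serum albumin (BSA, 0 IU/mL IFNγ) for up to 3 weeks, and mRNA was quantified by 3′ digital gene expression. Each line gave 15 groups of 3 samples, 45 samples per line and 90 in all. Naive cells were sampled at week 0 without IFNγ or 2 h and 24 h after it was added. At weeks 1, 2 and 3 there were a BSA control, a chronic group held in IFNγ without rechallenge, and 2 rechallenged groups taken 2 h and 24 h after fresh IFNγ. Each line is a single cell line grown in culture, and the replicates were described as triplicate experiments; where these were not independent cultures the p-values measure only the spread between these samples, which may be technical.

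Library totals ran from 274719 to 3161276 counts in YUMM2.1 (median 1403265) and from 295157 to 2205285 in CT26 (median 1318011), and 3 libraries lay under 25% of their line's median: replicate 3 of the chronic group at week 3 in each line and replicate 3 of the CT26 chronic group at week 1. After the filter on low counts the fit covered 9589 genes of YUMM2.1 and 8516 of CT26. The IFNγ response genes Irf1, Gbp2, Psmb8 and B2m were all called higher after 24 h and after 1, 2 and 3 weeks in both lines. Of 9 melanocyte markers only Sox10 had a median above 10 CPM (counts scaled to the library size) in YUMM2.1, with no count of Tyrp1, Gpr143 and Slc45a2, and of 10 colon epithelial markers only Krt18 and Krt20 did so in CT26, with no count of Epcam, Cdh1, Krt19, Cdx1 and Vil1. The summed CPM of 4 leukocyte markers did not exceed 1.27 in any YUMM2.1 library and 3.53 in any CT26 library. Of 4 fibroblast markers, Col1a2 and Col3a1 had medians above 10 CPM in YUMM2.1 (summed CPM of the 4 from 56.8 to 217) and Col1a2 in CT26 (32.3 to 198), and their part in the results was not tested.

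Of the 32 sterol and fatty acid genes, 29 passed the filter in each line and 30 in the fit over both lines. Dhcr7, the last enzyme of one route to cholesterol, and the desaturase Fads2 failed it in both lines, with medians of 4 and 2 counts per library in YUMM2.1 and 3 and 1 in CT26. Mvd, mevalonate diphosphate decarboxylase, failed it in YUMM2.1 only (median 5 counts) and the sterol reductase gene Tm7sf2 in CT26 only (median 2 counts). The most counted were Fdps (median 268 counts per library in YUMM2.1 and 490 in CT26), Msmo1 (188 and 333) and Scd2 (260 and 235), so the precision is best for these. Insig1 had a median of only 9 and 7 counts, Scap of 14 and 10, and Srebf1 of 15 and 11, and changes in them were measurable only when large.

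Promoter sequence was available for 25 of the 32 genes, as 33 windows of 300 bases around the RefSeq transcript start on the mouse build GRCm38.p6. No window was given for Fdps, Fdft1, Sqle, Stard4, Scd1, Scd2 and Fads1. The letters CCAAT, the box bound by NF-Y, which works with SREBP at sterol genes, were found on either strand in 63.6% of the 33 windows and in 37.4% of all 32851 windows of that length. CACGTG, an E-box that SREBP1 can also bind, was found in 18.2% against 7.15%, and TCACNCCAC, a sterol regulatory element form, in 3.03% against 1.24%, in Hmgcs1 alone. TTCNNNGAA, the core letters of a STAT site, were found in 3.03% against 8.3%, in Ebp alone. The 5 stretches given here lie upstream of transcript starts and are shown because their genes were among those that changed after IFNγ. They are written 5′ to 3′ on the gene's strand with the motif letters (ATTGG is CCAAT on the other strand) in capitals: Msmo1 at chr8:64733618-64733753 (minus strand), Hmgcs1 at chr13:119690166-119690316 (plus), Idi1 at chr13:8885546-8885605 (plus), Sc5d at chr9:42264315-42264410 (minus) and Ebp at chrX:8193557-8193612 (minus).
Msmo1: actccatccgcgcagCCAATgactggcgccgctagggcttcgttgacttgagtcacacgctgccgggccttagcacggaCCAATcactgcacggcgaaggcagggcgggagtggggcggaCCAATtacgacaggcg
Hmgcs1: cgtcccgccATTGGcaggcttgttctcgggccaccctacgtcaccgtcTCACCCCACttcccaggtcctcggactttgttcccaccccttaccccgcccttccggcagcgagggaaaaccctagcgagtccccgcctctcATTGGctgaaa
Idi1: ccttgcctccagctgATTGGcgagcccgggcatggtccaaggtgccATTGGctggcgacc
Sc5d: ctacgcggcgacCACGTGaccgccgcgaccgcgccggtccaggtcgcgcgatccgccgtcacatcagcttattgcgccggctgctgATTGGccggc
Ebp: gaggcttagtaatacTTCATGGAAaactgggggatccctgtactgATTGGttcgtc
A match describes letters in these windows and not a site in use in these cells.

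Before any IFNγ the genes were more highly expressed in CT26 than in YUMM2.1, relative to the rest of the transcriptome. In edgeR's quasi-likelihood test over both lines, 20 of 30 were called higher in CT26 (Benjamini-Hochberg adjusted p below 0.05), where 20.1% of all genes tested were, and 2 were called lower, where 25.9% of all genes were. The median log2 difference over the 30 was 0.82, beside -0.08 over all genes. Mvd and Tm7sf2 passed the filter in 1 line only, the line where each was higher, so the filter favoured their calls, and over the 28 genes that passed in both lines 19 were called higher and 1 lower, with a median of 0.82. The largest difference among these 28 was in Elovl6, which lengthens palmitate (46.5 ± 4.01 CPM in CT26 against 8.48 ± 2.54 in YUMM2.1, SD, n = 3; log2 difference 2.45 ± 0.27 SE, adjusted p = 3.5e-12). Mvd stood at 16.9 ± 6.04 against 2.78 ± 1.80 CPM, given as a description. Sqle, the squalene epoxidase at the entry to the sterol part, differed by 1.86 ± 0.20 and the stearoyl-CoA desaturase gene Scd1 by 1.42 ± 0.25. Fdps, which makes farnesyl diphosphate, differed by 1.20 ± 0.16 and lanosterol demethylase, Cyp51, by 1.15 ± 0.16. Among the called genes the samples of the 2 lines overlapped in Fads1 and Hmgcs1. Separation in the other called genes follows in large part from their being called and is no further evidence.

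Srebf2, the factor that mainly drives sterol genes, was also higher in CT26 (88.1 ± 6.62 against 43.4 ± 9.18 CPM, SD, n = 3; log2 difference 1.00 ± 0.17, adjusted p = 4.63e-07 in edgeR's quasi-likelihood test), as was Stard4 (1.14 ± 0.38, adjusted p = 0.009). Srebf1, Scap, Insig1 and Insig2 did not pass the test, with log2 differences of 0.62 ± 0.40, 0.47 ± 0.46, -0.13 ± 0.48 and 0.35 ± 0.33. Hsd17b7, a sterol 3-keto reductase, was lower in CT26 (-0.92 ± 0.26, adjusted p = 0.00194). Tm7sf2 stood at 1.19 ± 1.15 against 8.82 ± 1.23 CPM, also as a description. By role, the test called 6 of 8 mevalonate genes higher (Mvd included), 6 of 9 genes from squalene to cholesterol, 3 of 4 fatty acid synthesis genes, 3 of 3 desaturases and 2 of 6 regulators and carrier. Acly, Idi1, Pmvk and Sc5d were not called, at -0.03, 0.04, -0.29 and 0.36. With library totals in place of trimmed-mean scaling the median of all genes moved by -0.16 and the median of the 30 genes stood 0.89 above it, beside 0.90 as first computed.

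**Figure D1:**
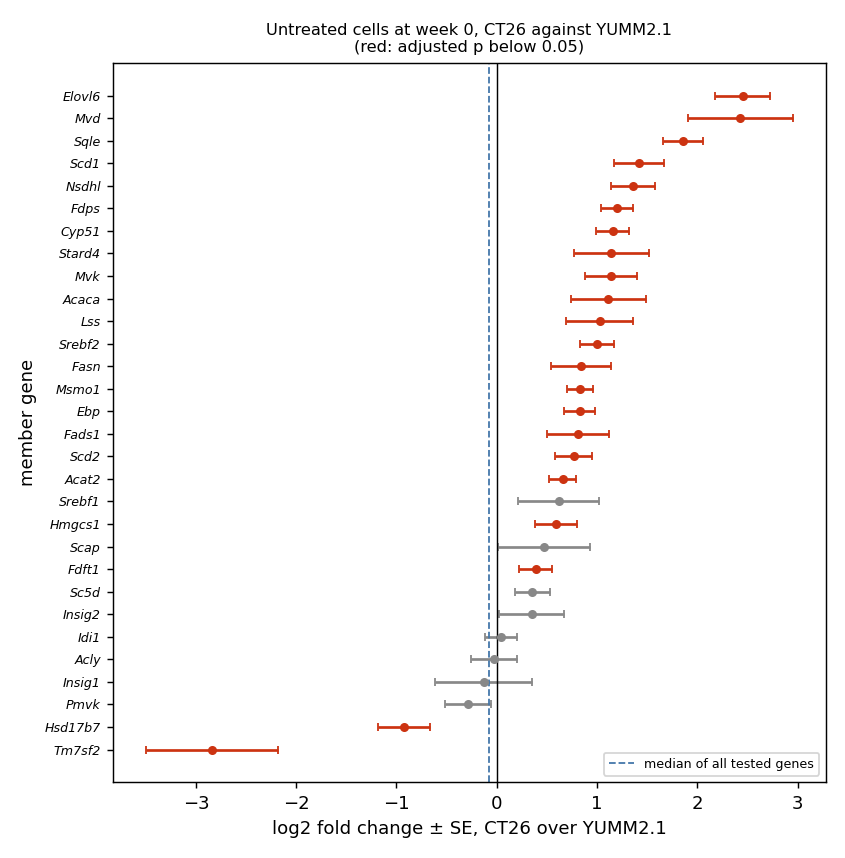
Log2 difference between untreated CT26 and untreated YUMM2.1 cells at week 0 for each of the 30 tested genes (points, with bars of 1 SE from the edgeR fit, n = 3 samples per line), ordered by size, in red where the adjusted p was below 0.05 and with a dashed line at the median of all genes. Most points lie to the right of 0, with Elovl6 and Mvd farthest at 2.45 and 2.43, and Tm7sf2 lies farthest left at -2.84, where Mvd and Tm7sf2 passed the filter in 1 line only.

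A first exposure of naive cells to IFNγ called none of the genes. In edgeR's quasi-likelihood test over the 4 comparisons (2 h and 24 h in each line) 0 of 116 gene tests passed an adjusted p of 0.05, where 0.834% of all gene tests did, and DESeq2 also called 0. At an unadjusted p under 0.05 there were 7 of 116, or 6.03%, beside 6.36% of all gene tests. In CT26 at 24 h, 26 of 29 genes had a log2 fold change below 0, with a median of -0.24 beside -0.02 over all genes, and the mean log2 CPM of the 29 genes was 5.26 ± 0.17 (SD, n = 3) against 5.59 ± 0.05 in the control. Its lowest sample stood at 5.12 and its highest at 5.44, below all 3 controls, which began at 5.54. The 3 exposed libraries held 519097, 618598 and 1337965 counts, against 1458270 to 1677329 in the controls. The level rose with the total among the exposed libraries, and the part of depth in this decrease was not tested. Scd2, a stearoyl-CoA desaturase gene, was nearest to the threshold, at 135, 170 and 169 CPM against 213, 269 and 275 (log2 fold change -0.66 ± 0.20, adjusted p = 0.0707 by edgeR), and without control replicate 1 there was 1 call in this comparison. In YUMM2.1 at 24 h the median was -0.06, and Insig1, itself a sterol-responsive gene, stood at 20.2, 8.2 and 13.6 CPM against 8.18, 7.33 and 4.50 (adjusted p = 0.629).

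Chronic exposure for 1 or 2 weeks likewise called none of them in either line. Over those 4 comparisons with the control of the same week 0 of 116 gene tests passed by edgeR's quasi-likelihood test, where 1.05% of all gene tests did, and DESeq2 called 0. The count at an unadjusted p under 0.05 was 9, or 7.76%, beside 7.59% of all gene tests. The medians of the log2 fold changes lay between -0.13 (YUMM2.1, week 2) and 0.00 (YUMM2.1, week 1).

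After 3 weeks of IFNγ, 5 enzymes of cholesterol synthesis were lower in CT26 than in the week-3 control. In edgeR's quasi-likelihood test these 5 of 29 passed, where 3.79% of all genes were called lower, and no gene of the list was called higher. Fdps, farnesyl diphosphate synthase, was measured at 502, 464 and 772 CPM in the controls and at 329, 293 and 385 CPM after 3 weeks (log2 fold change -0.81 ± 0.17 SE, adjusted p = 0.000969). All 3 exposed samples lay below all 3 controls, and the third control stood above the other two. Msmo1, the methylsterol oxidase that removes methyl groups from lanosterol derivatives, was measured at 325, 332 and 353 CPM in the controls and at 249, 203 and 201 CPM after exposure (-0.61 ± 0.13, adjusted p = 0.001). Here the controls spanned a narrow range and the groups were well apart. As between the lines, separation in called genes, here and below, follows in large part from the call and is no further evidence.

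The other 3 genes moved less. Ebp, the sterol isomerase, fell from 156, 136 and 155 CPM to 118, 101 and 93.6 CPM (log2 fold change -0.48 ± 0.13, adjusted p = 0.0188 by edgeR's quasi-likelihood test and Benjamini-Hochberg adjustment). Acat2, the cytosolic thiolase that starts the mevalonate route, fell from 169, 173 and 134 CPM to 127, 117 and 70.2 CPM (-0.50 ± 0.15, adjusted p = 0.0333). In both genes the groups did not overlap, and for Acat2 the lowest value came from the library with 295157 counts. Sc5d, the sterol desaturase, fell from 99, 108 and 95.3 CPM to 77.3, 59.7 and 63.5 CPM (-0.56 ± 0.18, adjusted p = 0.0445), again without overlap. Msmo1 and Fdps stayed called in all 12 other fits made (other scaling, filter, samples, tool, the replicate block and each library of the 2 groups left out in turn), whereas Acat2 and Ebp stayed called in 4 and Sc5d in 2. The count of called genes was 2 without control replicate 1 or exposed replicate 3, and 3 without control replicate 2, control replicate 3 or exposed replicate 2. It was 2 with library totals as scaling or only the compared groups, and 3 with DESeq2 or without the libraries of low total.

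All 5 called genes belong to the sterol branch, 2 of 8 in the mevalonate group and 3 of 8 from squalene to cholesterol, and medians in these groups were -0.46 and -0.45. None of 4 fatty acid synthesis genes, 3 desaturases or 6 regulators was called, with medians of 0.12, 0.01 and -0.02. Fdft1, squalene synthase (-0.55, adjusted p = 0.0665 by edgeR), and Idi1, which isomerises isopentenyl diphosphate (-0.44, adjusted p = 0.0631), fell short of the threshold. Hmgcs1, the synthase before mevalonate, stood at 0.06 and Fasn, fatty acid synthase, at 0.09. Srebf2 was at 76.1, 87.1 and 86.5 CPM in the controls and at 74.6, 51.9 and 66.9 CPM after 3 weeks (-0.37 ± 0.16, adjusted p = 0.145). Over the 29 genes the median log2 fold change was -0.25, beside 0.02 over all genes. With library totals as scaling the median of all genes moved by 0.20, and the 29 genes stood at -0.26 relative to it under both scalings.

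In YUMM2.1 the same 3 weeks gave a single call, and it was Scap, whose count was low. Scap stood at 5.77, 6.24 and 6.55 CPM in the controls, from 13, 16 and 19 counts, and at 17.1, 25 and 28.0 CPM in the chronic group, from 28, 25 and 8 counts. It was called higher in edgeR's quasi-likelihood test (log2 fold change 1.82 ± 0.41, adjusted p = 0.0091), where 0.72% of all genes were called higher, and without replicate 2 of the chronic group the call was lost. The 3 chronic samples were all above the controls. Of the sterol enzymes, 7 of 7 mevalonate genes and 8 of 9 genes from squalene to cholesterol had log2 fold changes below 0, with medians of -0.27 and -0.29, but none passed the test. Hmgcs1 was nearest, at 42.2, 51.8 and 39.3 CPM in the controls and 25, 24 and 17.5 CPM in the chronic group (-0.91 ± 0.26, adjusted p = 0.0779 by edgeR). Over all 29 genes tested, 17 were below 0, beside 49.8% of all genes, and the median was only -0.04. The mean log2 CPM of regulators and carrier, with Scap included, went from 3.71 ± 0.21 to 4.19 ± 0.14 (SD, n = 3). That of fatty acid synthesis genes went from 4.07 ± 0.09 to 4.49 ± 0.17. Apart from Scap no gene of either group was called, and these means were not tested.

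The response at week 3 was not shown to differ between the lines. In the fit over both lines 0 of 120 tests of the difference in response (chronic at weeks 1, 2 and 3 and naive at 24 h) passed by edgeR's quasi-likelihood test, where 0.133% of all gene tests did, and DESeq2 called 0. At an unadjusted p under 0.05 there were 10, or 8.33%, beside 6.05% of all gene tests. For Fdps the response at week 3 was lower in CT26 by -0.51 ± 0.23 on the log2 scale (adjusted p = 0.713 by edgeR) and for Msmo1 by -0.24 ± 0.19 (adjusted p = 0.919).

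**Figure D2:**
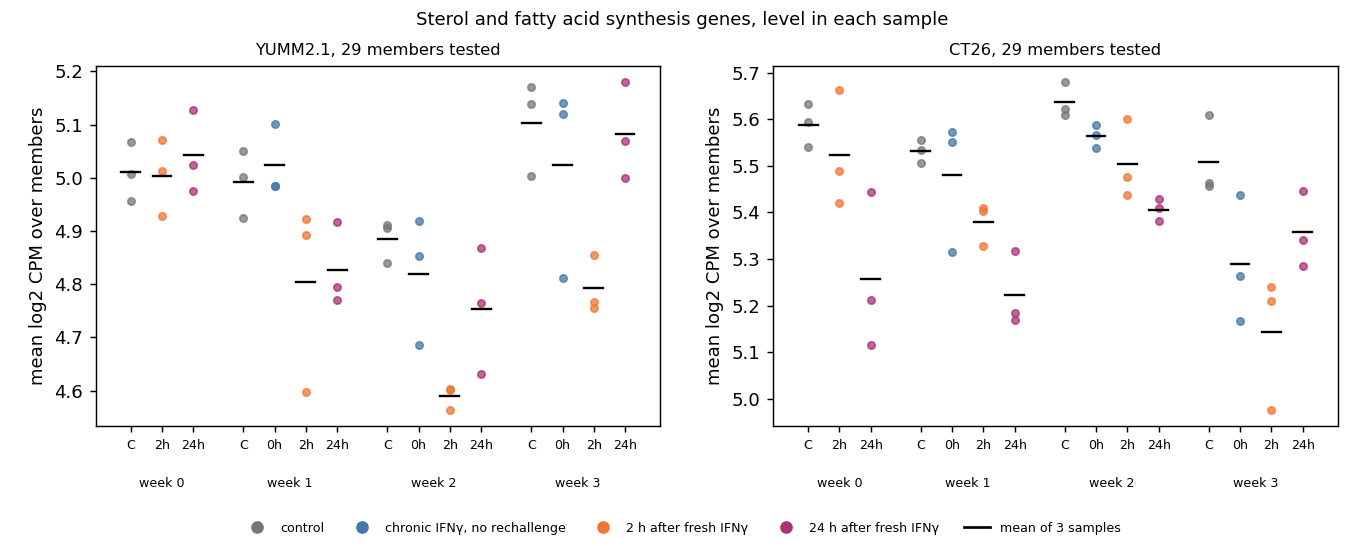
Mean log2 CPM over the 29 tested genes in each sample of YUMM2.1 and CT26 (points, 3 per group) across the 15 groups of each line, ordered by week and exposure, with a short line at each group mean. The 2 panels have their own axes, and in both lines the groups 2 h after rechallenge at week 3 lie below their controls (4.79 against 5.10 in YUMM2.1 and 5.14 against 5.51 in CT26).

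Fresh IFNγ given to cells already exposed gave calls in 3 of the 12 comparisons with the same week's cells that were not rechallenged, all of them lower. No mock-rechallenged group was sampled, so the part of handling in these changes was not tested. After 3 weeks in YUMM2.1, Fdft1 (log2 fold change -0.84 ± 0.17, adjusted p = 0.00348), Msmo1 (-0.70 ± 0.13, adjusted p = 0.0012) and Idi1 (-0.79 ± 0.18, adjusted p = 0.0117) were lower 2 h after fresh IFNγ by edgeR's quasi-likelihood test, 3 of 29 where 0.209% of all genes were called lower. Fdft1 was at 69.0, 70.1 and 77.1 CPM before and at 33.8, 44.7 and 39.7 CPM after 2 h. Its groups lay well apart, as did those of Msmo1, while those of Idi1 overlapped because the library with 274719 counts stood at 31.5 CPM beside 80.0 and 83.1. All 3 calls were lost when only the 2 compared groups were fitted, and without replicate 1 of the chronic group 1 call was left.

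At week 1 in YUMM2.1 Acat2 was lower 2 h after rechallenge (-0.68 ± 0.14, adjusted p = 0.00508 by edgeR's quasi-likelihood test), 1 of 29 where 0.115% of all genes were called lower. Acat2 was at 93.1, 81.5 and 72.4 CPM before and 51.7, 56.7 and 47.4 CPM after, with no overlap. Without replicate 1 of the chronic group no gene was called, and without replicate 1 or 3 of the rechallenged group 3 and 2 were. At week 1 in CT26 Fdps (-0.82 ± 0.17, adjusted p = 0.00262), Scd2 (-0.86 ± 0.20, adjusted p = 0.0134) and Msmo1 (-0.52 ± 0.13, adjusted p = 0.0246) were lower 24 h after rechallenge by the same test, 3 of 29 where 0.388% of all genes were called lower. Fdps was at 421, 500 and 547 CPM before and 312, 274 and 235 CPM after, the largest separation of the 3, and the samples of Scd2 overlapped. Of these 3 calls 1 was left without replicate 1 of the chronic group or any one of the rechallenged samples, and with only the compared groups.

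The other 9 rechallenge comparisons called 0 of 261 gene tests by edgeR's quasi-likelihood test and 0 by DESeq2, where 0.434% of all gene tests were called. At an unadjusted p under 0.05 there were 28, or 10.7%, of which 27 were lower, beside 6.6% of all gene tests in either direction. The share of all gene tests that were lower at that threshold is not given, so the direction has no background beside it. Without replicate 2 of the rechallenged group, YUMM2.1 at week 2 and 2 h had 1 call. Medians 2 h after rechallenge were below 0 in all 6 comparisons, from -0.07 (CT26, week 2) to -0.36 (YUMM2.1, week 3). Medians at 24 h were -0.21, 0.03 and 0.00 for YUMM2.1, while those for CT26 were -0.28, -0.20 and 0.06, at weeks 1, 2 and 3.

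The naive 2 h response gave medians of -0.03 in YUMM2.1 and -0.02 in CT26. The 2 h response of exposed cells less that of naive cells had medians of -0.19, -0.25 and -0.37 for YUMM2.1, while those for CT26 were -0.11, -0.02 and -0.11, at weeks 1, 2 and 3, a comparison added after the first results were seen. None of its 174 gene tests passed by edgeR's quasi-likelihood test and 0 by DESeq2, where 0.131% of all gene tests did. At an unadjusted p under 0.05 there were 25, or 14.4%, of which 23 were lower in exposed cells, beside 5.88% of all gene tests in either direction. For all genes the split by direction is again not given. A difference between naive and exposed cells was thus not shown for any single gene.

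Set against the BSA control of the same week, rechallenged cells showed the broadest decrease of cholesterol synthesis genes, in comparisons that were also added after the first results. All comparisons of a week share the same 3 control samples, so their counts are given side by side and are not independent of each other. The widest was YUMM2.1 at week 3, 2 h after fresh IFNγ, where edgeR's quasi-likelihood test called 11 of 29 genes lower and 4.41% of all genes were called lower. These were 6 of 7 mevalonate genes (Acat2, Mvk, Pmvk, Idi1, Fdps and Fdft1) and 5 of 9 from squalene to cholesterol (Sqle, Cyp51, Msmo1, Hsd17b7 and Sc5d), with group medians of -0.90 and -0.69. Scap was the only one called higher, where 6.26% of all genes were (1.20 ± 0.39, adjusted p = 0.0423).

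Msmo1 and Fdft1 changed most clearly there. Msmo1 was at 211, 210 and 206 CPM in the week-3 controls, at 192, 150 and 158 CPM in the chronic group, at 104, 92 and 117 CPM 2 h after rechallenge and at 156, 195 and 154 CPM after 24 h. The 2 h samples were the lowest of the 4 groups and did not overlap with any other (log2 fold change against control -1.0 ± 0.12, adjusted p = 4.83e-08 by edgeR's quasi-likelihood test). Fdft1 followed the same order, at 77.2, 83.8 and 94.1 CPM in the controls, 33.8, 44.7 and 39.7 CPM at 2 h and 71.3, 71.7 and 74.2 CPM at 24 h (-1.11 ± 0.16 at 2 h, adjusted p = 9.85e-07). Pmvk, phosphomevalonate kinase, and Mvk, mevalonate kinase, stood at -1.0 ± 0.25 and -0.90 ± 0.30 at 2 h, and Fdps at -0.62 ± 0.14. Msmo1, Fdft1 and Idi1 stayed called in all 12 other fits, and Mvk in 2. In place of 12 calls in either direction there were 3 without replicate 2 of the 2 h group, 7, 6 and 7 without control replicates 1, 2 and 3, and 7 without the filter.

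In CT26 at week 3, 2 h after rechallenge, 8 of 29 genes were called lower by edgeR's quasi-likelihood test, where 3.93% of all genes were. They were Acat2, Idi1, Fdps and Fdft1 of the mevalonate group and Cyp51, Msmo1, Ebp and Sc5d of the later steps. Acat2 was at 169, 173 and 134 CPM in the controls and at 70.6, 82.2 and 88.5 CPM at 2 h (-0.98 ± 0.15, adjusted p = 7.39e-06). Fdps was at 314, 248 and 290 CPM at 2 h, against control values of 502, 464 and 772 CPM (-1.03 ± 0.16, adjusted p = 1.49e-05). Msmo1 was at 204, 143 and 197 CPM, against 325, 332 and 353 CPM (-0.89 ± 0.12, adjusted p = 1.09e-06), and these 3 genes and Idi1 stayed called in all 12 other fits. Without control replicate 3 there were 5 calls in either direction, without replicate 2 of the 2 h group 4, and with only the compared groups 5, in place of 9. At 24 h Msmo1 was at 272, 251 and 207 CPM (-0.47 ± 0.12, adjusted p = 0.0127) and Fdps at 303, 380 and 292 CPM (-0.84 ± 0.16, adjusted p = 0.00047), and these were the 2 called of 29, where 2.47% of all genes were called lower. Without control replicate 3 or replicate 3 of the 24 h group, or with library totals as scaling, there was 1 call.

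At week 1 in CT26, genes were called lower both 2 h and 24 h after rechallenge. The edgeR test called 7 of 29 genes at 24 h, where 2.62% of all genes were lower (Acat2, Fdps and Fdft1, with Cyp51, Msmo1, Nsdhl and Sc5d), and 3 of 29 at 2 h, where 1.1% were (Fdps, Msmo1 and Sc5d). Fdps fell from 509, 643 and 707 CPM in the controls to 393, 277 and 324 CPM at 2 h and 312, 274 and 235 CPM at 24 h (-0.90 ± 0.16 and -1.18 ± 0.16, adjusted p = 0.00018 and 7.32e-07 by edgeR's quasi-likelihood test). The 3 controls were all above the 6 rechallenged samples. The chronic group stood at 421, 500 and 547 CPM, above the rechallenged samples and overlapping the controls. Msmo1 fell from 309, 338 and 322 CPM to 223, 182 and 211 CPM and then to 183, 184 and 173 CPM, in groups that did not overlap at either time. The 24 h group was not tested against the 2 h group, and with library totals as scaling 2 genes were called at each time. Without control replicate 1 or 2 there were 4 calls at 24 h, without replicate 3 of the 24 h group 3, and with only the compared groups 4. Without the libraries of low total there were 5 calls at 2 h.

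At week 1 in YUMM2.1 the test called 7 of 29 genes lower at 2 h, where 2.16% of all genes were, and 2 of 29 at 24 h, where 2.19% were. The 7 were Hmgcs1, Acat2, Idi1, Fdps, Fdft1, Sqle and Msmo1. Hmgcs1, HMG-CoA synthase, fell furthest, from 33.1, 35.8 and 40.3 CPM in the controls to 22.3, 13.7 and 15.4 CPM (log2 fold change -1.05 ± 0.25, adjusted p = 0.00663 by edgeR's quasi-likelihood test). Acat2 fell from 87.9, 95.4 and 80.2 CPM to 51.7, 56.7 and 47.4 CPM (-0.74 ± 0.14, adjusted p = 0.000212), and it and Msmo1 stayed called in all 12 other fits. The median over all 29 genes was only -0.10. That median became 0.06 with library totals as scaling, which moved the median of all genes by 0.16, and relative to all genes it was -0.10 under both. Without control replicate 3 there were 4 calls, without replicate 2 of the 2 h group 3, and with library totals as scaling 4. The 2 genes at 24 h were Fdps and Msmo1 (-0.47 ± 0.14 and -0.40 ± 0.12, adjusted p = 0.0364 and 0.0498), and 1 was left without any one of the controls and none without any one of the 24 h samples or with library totals as scaling.

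Few genes were called at week 2, but the counts of calls do not rank the weeks by size of change. In YUMM2.1 at 2 h the median over the 29 genes was -0.35, beside -0.10 at week 1. The YUMM2.1 controls held 994733 to 1270700 counts at week 2, beside 2309928 to 3161276 at week 1 and 2354083 to 3047691 at week 3. Whether depth played a part in the counts of calls was not tested. In YUMM2.1 at 2 h of week 2 the test called Fdft1 alone, 1 of 29 where 0.24% of all genes were called lower, at 37.3, 33.4 and 39.8 CPM against 55.0, 82.8 and 49.8 CPM in the controls (-0.74 ± 0.17, adjusted p = 0.00814 by edgeR's quasi-likelihood test). Its call was lost without control replicate 2 or replicate 1 or 2 of the 2 h group, without the filter and with only the compared groups. In CT26 at 24 h it called 2 of 29, where 2.99% of all genes were lower. Pmvk was at 26.1, 31.1 and 22.8 CPM against 48.7, 50.6 and 48.2 CPM (-0.88 ± 0.21, adjusted p = 0.00553) and Sqle at 62.3, 56.0 and 60.4 CPM against 87.8, 79.3 and 87.7 CPM (-0.51 ± 0.16, adjusted p = 0.0461). Neither gene's groups overlapped, but 1 call was left without any one of the 3 controls or of replicates 1 and 2 at 24 h, and none without replicate 3. With only the compared groups there were 5 calls, and with library totals as scaling 1. The other 3 comparisons of rechallenged cells with controls (YUMM2.1 at 24 h in weeks 2 and 3 and CT26 at 2 h in week 2) called 0 of 87 gene tests by edgeR and 0 by DESeq2, where 2.28% of all gene tests were called. At an unadjusted p under 0.05 there were 12, or 13.8%, beside 11.4% of all gene tests, and without replicate 1 of the CT26 group at 2 h in week 2 it had 1 call.

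**Figure D3:**
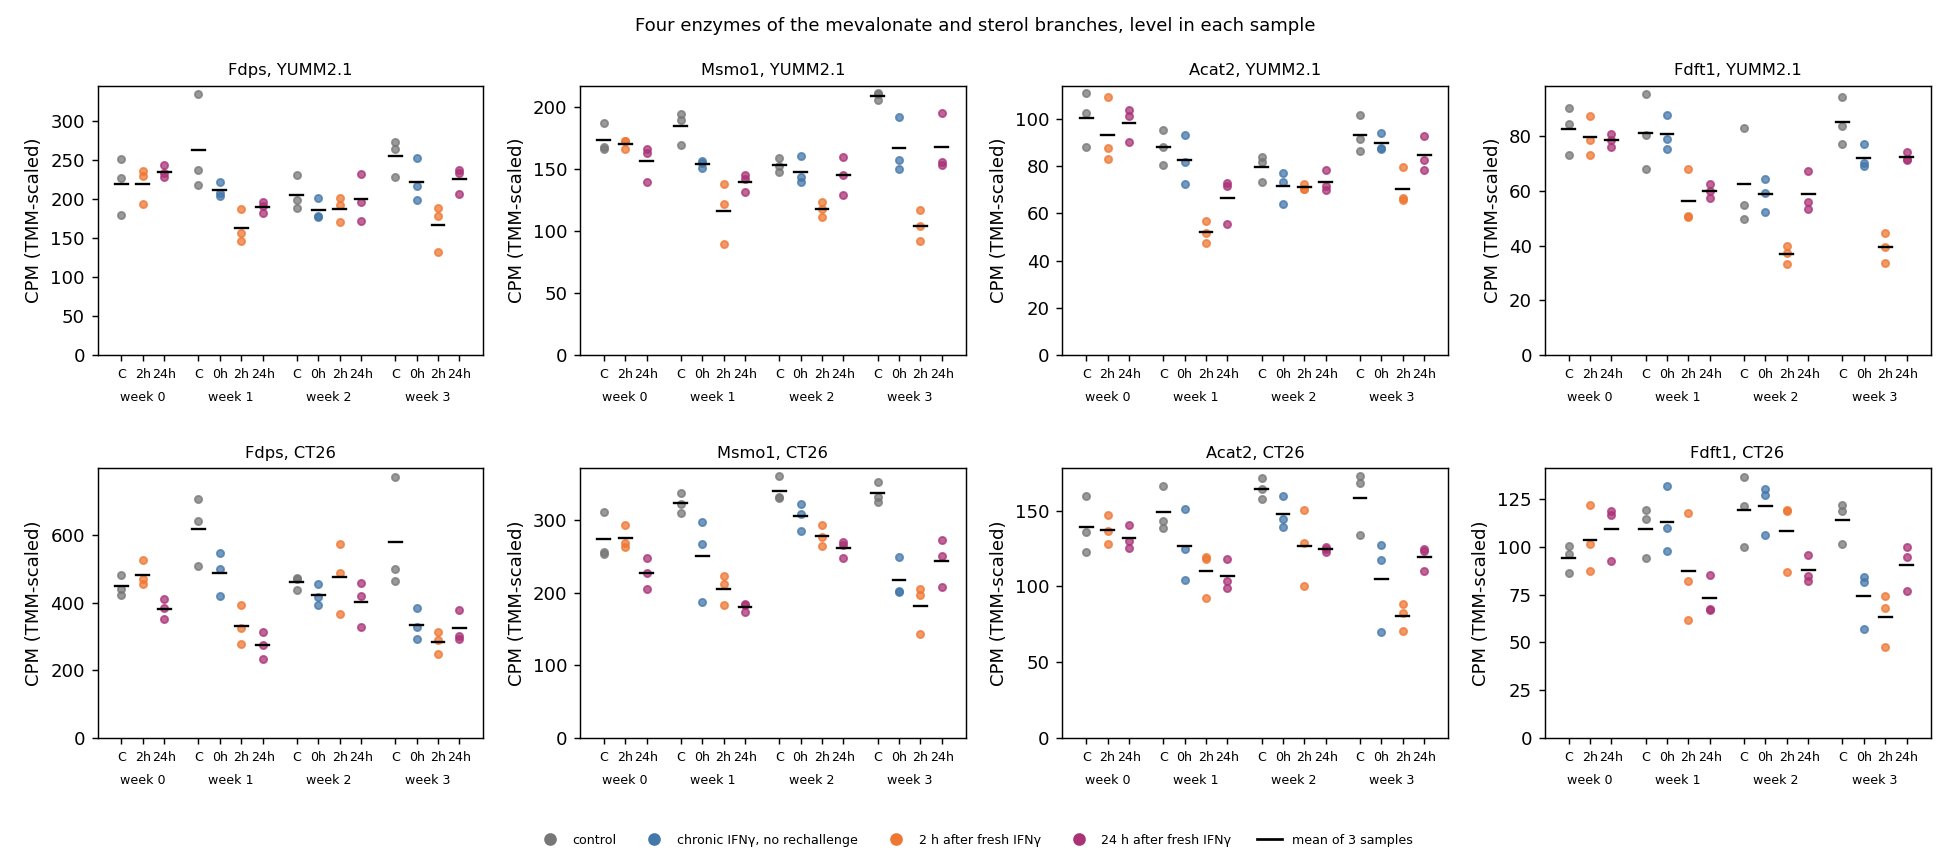
Levels of Fdps, Msmo1, Acat2 and Fdft1 in CPM in every sample of both lines (points, 3 per group, with a short line at the group mean) over the 15 groups of each line ordered by week and exposure. In CT26, Msmo1 lies between 143 and 204 CPM 2 h after rechallenge at week 3, where its controls lie between 325 and 353.

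In these 12 comparisons of rechallenged cells with controls the genes called lower were sterol enzymes, and no gene of fatty acid synthesis or desaturation was called lower. Elovl6, Acaca, Fasn and Acly had medians of 10, 16, 33 and 64 counts per library in YUMM2.1, beside 268 for Fdps. The part of low counts was not tested. Desaturase mean log2 CPM in CT26 was 5.86, 6.08 and 6.21 at 24 h of weeks 1, 2 and 3, against 6.19, 6.34 and 6.20 in controls. In YUMM2.1 it was 5.73, 5.53 and 6.14, against 5.67, 5.61 and 5.97. In YUMM2.1 2 h after rechallenge at week 3 the 4 fatty acid synthesis genes had a median of 0.29 and the 3 desaturases of 0.10, beside -0.90 for the mevalonate genes. In CT26 the medians were -0.19 and -0.04, beside -0.66. Fasn stood at 0.34 ± 0.27 in YUMM2.1 and -0.15 ± 0.37 in CT26, and Scd1 at 0.08 ± 0.26 and -0.04 ± 0.21. Acaca, acetyl-CoA carboxylase, was called higher in CT26 at that time, 1 of 29 where 4.36% of all genes were called higher, at 25.7, 26.7 and 10.3 CPM against 10.6, 8.12 and 10.8 CPM in the controls (1.10 ± 0.33, adjusted p = 0.0264 by edgeR's quasi-likelihood test). One of its 2 h samples lay within the controls, and the call stayed in 5 of the 12 other fits. Over all 29 genes the median was -0.47 in each line. With library totals as scaling the median of all genes moved by 0.155 in the YUMM2.1 and by 0.182 in the CT26 comparison, and relative to it the 29 genes stood at -0.49 and -0.47. The 2 branches were not tested against each other. Srebf2 itself stood at 0.24 ± 0.19 in YUMM2.1 and 0.07 ± 0.14 in CT26 and Srebf1 at 0.14 ± 0.39 and -0.30 ± 0.52, so neither passed the test.

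**Figure D4:**
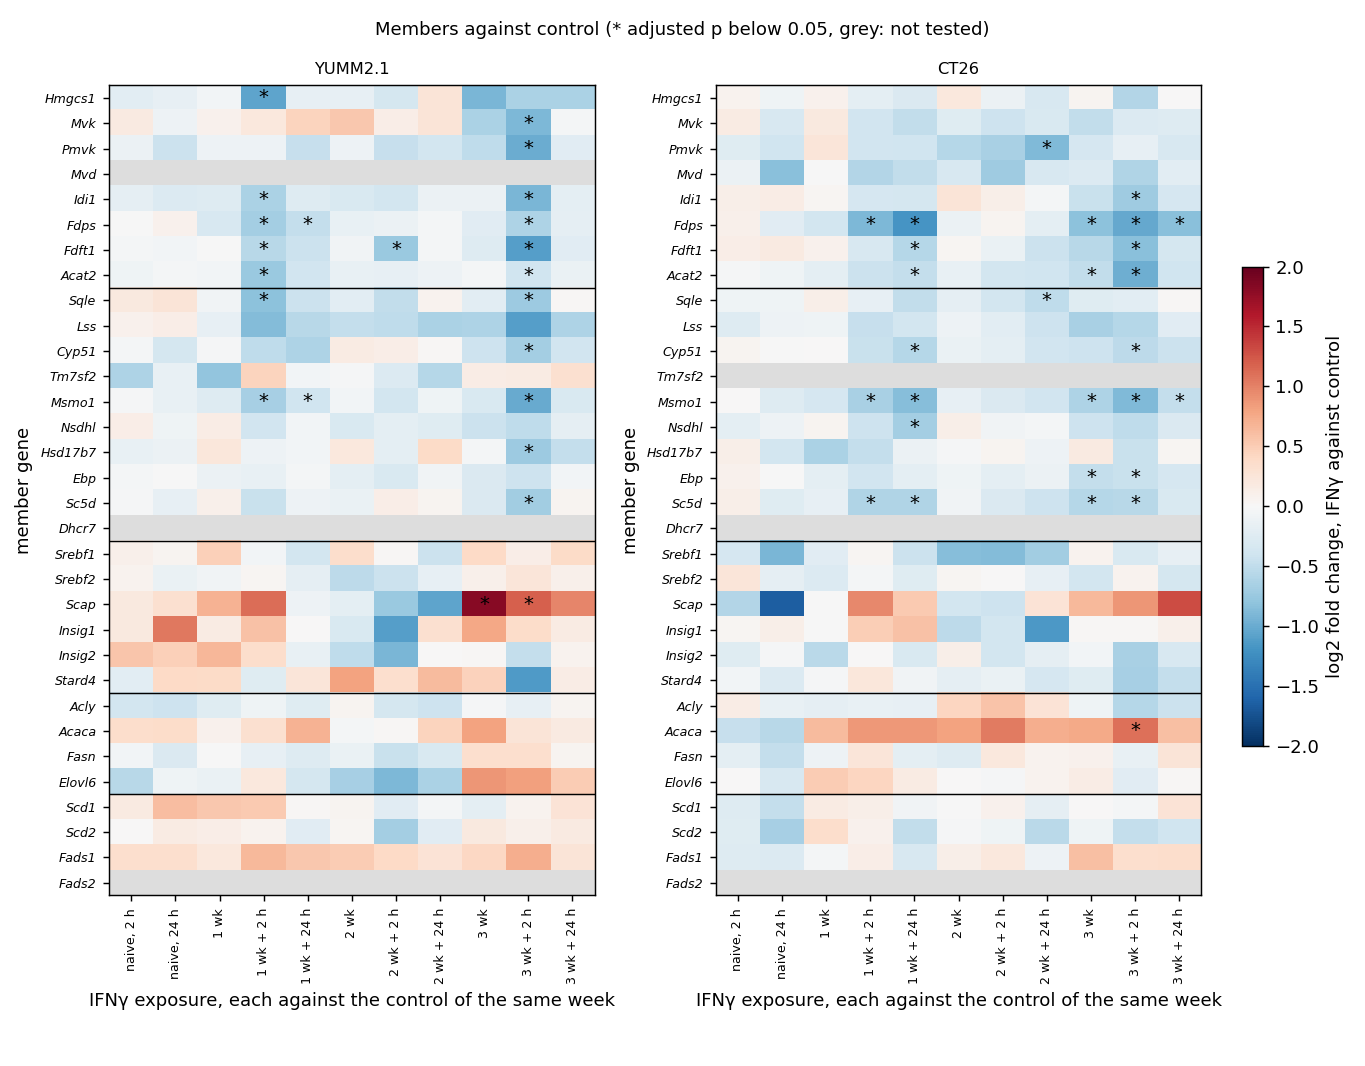
Log2 fold change of each tested gene (rows, by role) in each exposed group against the control of the same week (columns, by line, week and time after fresh IFNγ), on a colour scale centred on 0, with a star where the adjusted p by edgeR was below 0.05 and grey for genes not tested. The stars lie mostly in the rows of sterol enzymes, and the columns with the most stars are YUMM2.1 at week 3, 2 h (12) and CT26 at week 3, 2 h (9).

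No gene of the list was called between control cultures of different weeks. Control cultures at weeks 1, 2 and 3 against week 0 had medians of -0.05, -0.17 and 0.10 for YUMM2.1, while those for CT26 were -0.04, 0.05 and 0.04. Over these 6 comparisons edgeR's quasi-likelihood test called 0 of 174 gene tests and DESeq2 0, where 0.293% of all gene tests were called. At an unadjusted p under 0.05 there were 27, or 15.5%, of which 11 were lower, beside 8.5% of all gene tests in either direction. The mean log2 CPM of the 29 genes in the controls ran from 4.89 ± 0.04 (week 2) to 5.10 ± 0.09 (week 3) in YUMM2.1 and from 5.51 ± 0.09 (week 3) to 5.64 ± 0.04 (week 2) in CT26 (SD, n = 3).

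Across the 15 groups of a line the genes tended to vary together. As a description over group means, which share their controls and scaling, the Pearson correlation of each gene with the mean of the other genes was above 0 for 27 of 29 in CT26 (median 0.64) and for 28 of 29 in YUMM2.1 (median 0.44), beside medians of 0.00 and 0.01 for all other genes tested. In CT26 the medians were 0.70 for the mevalonate genes and 0.71 for squalene to cholesterol, and 0.25 for fatty acid synthesis. These groups held 8, 8 and 4 of the 29 genes. The mean of the others was thus made mostly of sterol enzymes, which favours higher values for them. Msmo1 followed the others most closely in CT26 (0.88) and Fdft1 in YUMM2.1 (0.88), while Acaca ran against them in CT26 (-0.63) and Fads1 in YUMM2.1 (-0.30). The genes outside the list whose group means were most like the mean level were Stambp (0.93), Hspb6, Maf, Htra3 and Rtkn2 in YUMM2.1 and Gtf2a2 (0.90), Atp5c1, Eif4a3, Wdr83os and Gm38194 in CT26, each over 15 groups.

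Of 35 other genes of cholesterol and lipid handling, the filter left 26 in YUMM2.1 and 21 in CT26, and 25 in the fit over both lines. Between the untreated lines 3 of 25 were called higher in CT26 (20.1% of all genes), among them Aacs, which activates acetoacetate (log2 difference 2.22 ± 0.37), and 7 lower (25.9% of all genes), among them Lipa, the lysosomal acid lipase (-3.99 ± 0.28), Ggps1 (-0.92 ± 0.23) and Elovl5 (-0.77 ± 0.19). At least 4 of the 25 had not passed the filter in CT26. None was called after a first exposure of naive cells. In the chronic comparisons at week 3 none was called in YUMM2.1. In CT26 1 of 21 was called, Soat1, the enzyme that esterifies cholesterol for storage, where 293 of 8516 genes were called higher. Soat1 was higher (log2 fold change 0.76 ± 0.24, adjusted p = 0.0435 by edgeR's quasi-likelihood test), with overlapping groups. Against the same controls, rechallenge gave 1.11 ± 0.23 at 2 h (108 against 49.8 CPM, adjusted p = 0.000852) and 0.85 ± 0.23 at 24 h (adjusted p = 0.0207). Of 8516 genes, 371 and 171 were called higher at these times. Soat1 was not called in any CT26 comparison at weeks 1 and 2. In YUMM2.1, Soat1 was higher at week 1 after 24 h (0.92 ± 0.17, adjusted p = 0.000112), at week 2 after 2 h and 24 h (0.82 ± 0.17 and 0.80 ± 0.18) and at week 3 after 2 h (0.55 ± 0.17, adjusted p = 0.0275). Of 9589 genes, 227 were called higher at week 1 after 24 h, and 150 and 154 at week 2 after 2 h and 24 h. In YUMM2.1 2 h after rechallenge at week 3, 4 of 26 were called higher and 3 lower, beside 6.26% and 4.41% of all genes. Higher were, among others, Soat1, Nr1h2, which encodes the oxysterol receptor LXRβ (1.36 ± 0.35), and the ubiquitin ligase gene Rnf139 (1.94 ± 0.52). Lower were the lysosomal cholesterol carrier Npc2 (-0.29 ± 0.10) and, at 1.14 against 8.40 CPM, Lpin1. In CT26 at that time 1 of 21 was called higher, Soat1, and 1 lower (beside 4.36% and 3.93% of all genes), Lpin1, also at a low level (1.49 against 7.35 CPM).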

How the data were processed

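Cells were profiled by 3′ digital gene expression. The authors deposited 1 table of raw counts per Ensembl gene for 90 samples. Per the labels it was made with Salmon 0.13.1 on mm10. How the estimates became whole numbers was not given in the sources used here. The study left out some samples that it does not name, and all 90 were kept here. Gene symbols were matched to 53668 of 53697 identifiers. For each line, edgeR 4.0.16 (R 4.3.3) was run on the counts of all 45 samples, with filterByExpr by group, TMM scaling and the quasi-likelihood test, and p-values were adjusted by Benjamini-Hochberg over all genes tested at 0.05. Comparisons between lines used 1 fit of all 90 samples. CPM were TMM-scaled, and log2 CPM used a prior count of 2. A fit with DESeq2 1.42.0, library totals as scaling, no filter, a replicate block, only the compared groups, no library under 25% of the median total, and each library left out in turn were the alternatives. The scripts were tested on simulated data. All members could be named. Full values were given for those called in a chronic or naive comparison, or with the 3 smallest p-values in the 3-week chronic comparisons, and, decided after the values were seen, for those that led the other comparisons. The members and lists were chosen with earlier results of these data known. Counts of 3′ reads do not separate overlapping genes, and low counts limit what can be seen for Insig1, Scap and Srebf1. Some genes of the wider lists are not reported here.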

Additional observations from a re-analysis of the deposited data

How the results depend on the processing

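No call turned in direction under any alternative. Of the log2 fold changes of called genes recomputed with another setting, 319 kept their call and 95 lost it, and with a library left out 266 kept it and 148 lost it. The cause of the changes below was not tested, apart from there being fewer samples or other genes tested. The comparisons of rechallenged cells with controls (R) and of exposed with naive 2 h responses, and the fits without low libraries, were chosen after seeing the data. F stands for fresh IFNγ against the same week's exposed cells.

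With library totals as scaling, medians became, in YUMM2.1, -0.20 (F 1w 2 h), -0.073 (2 h response at week 1 less naive), 0.056 (R 1w 2 h) and -0.33 (R 3w 2 h), in CT26 -0.038 (chronic 3w), -0.046 (control 2w), 0.038 (2 h response at week 1 less naive), -0.053 (R 1w 2 h), -0.20 (R 1w 24 h), -0.28 (R 3w 2 h) and -0.13 (R 3w 24 h), and 0.65 between the untreated lines. Counts became 1 (F 2w 2 h), 4 (R 1w 2 h) and 0 (R 1w 24 h) in YUMM2.1 and 2 (chronic 3w), 2 (R 1w 24 h), 1 (R 2w 24 h) and 1 (R 3w 24 h) in CT26. The mean in place of the median gave 0.042 (naive 24 h), -0.17 (F 1w 2 h) and -0.30 (R 3w 2 h) in YUMM2.1, -0.10 (F 1w 2 h), -0.091 (control 3w), -0.34 (R 3w 2 h) and -0.14 (R 3w 24 h) in CT26, and 0.69 between lines. Without the filter on low counts the counts were 0 (F 1w 2 h, with a median of -0.13), 1 (F 2w 2 h), 1 (R 1w 24 h) and 7 (R 3w 2 h) in YUMM2.1 and 1 (naive 24 h) and 1 (F 1w 2 h) in CT26. With only the compared groups they were 0 (F 1w 2 h) and 0 (F 3w 2 h) in YUMM2.1 and 1 (naive 24 h), 2 (chronic 3w), 1 (F 1w 24 h), 1 (F 2w 24 h), 1 (control 3w), 4 (R 1w 24 h), 5 (R 2w 24 h) and 5 (R 3w 2 h) in CT26. Without low libraries they were 1 (YUMM2.1 R 1w 24 h), 3 (CT26 chronic 3w) and 5 (CT26 R 1w 2 h), and with DESeq2 1 (YUMM2.1 R 1w 24 h), 3 (CT26 chronic 3w) and 7 (CT26 F 1w 24 h).

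The replicate numbers did not pair the samples: all 3 correlations of same-numbered deviations were over 0.1 in 1 of 14 comparisons in YUMM2.1 and 0 of 14 in CT26. With a replicate block the counts were 1 (YUMM2.1 R 1w 24 h), 1 (CT26 naive 24 h) and 5 (CT26 F 1w 24 h), and the median between untreated lines was 0.70.

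With each library left out in turn, counts ran in YUMM2.1 from 0 to 1 (chronic 3w), 0 to 3 (F 1w 2 h), 0 to 1 (F 2w 2 h), 1 to 3 (F 3w 2 h), 3 to 7 (R 1w 2 h), 0 to 1 (R 1w 24 h), 0 to 1 (R 2w 2 h) and 3 to 14 (R 3w 2 h), and in CT26 from 0 to 1 (naive 24 h), 2 to 5 (chronic 3w), 1 to 4 (F 1w 24 h), 3 to 7 (R 1w 24 h), 0 to 1 (R 2w 2 h), 0 to 1 (R 2w 24 h), 4 to 8 (R 3w 2 h) and 1 to 2 (R 3w 24 h). Medians ran in YUMM2.1 from -0.16 to -0.014 (chronic 3w), -0.37 to -0.17 (F 1w 2 h), -0.34 to -0.17 (F 2w 2 h), -0.27 to -0.12 and -0.46 to -0.24 (2 h less naive, weeks 2 and 3), -0.22 to -0.041 (R 1w 2 h), -0.34 to -0.15 (R 1w 24 h) and -0.60 to -0.35 (R 3w 2 h), in CT26 from -0.15 to 0.011 (naive 2 h), -0.16 to 0.034 (chronic 1w), -0.41 to -0.24 (F 1w 24 h), -0.27 to -0.070 (F 3w 2 h), -0.18 to 0.092 (control 3w), -0.24 to -0.093 and -0.20 to 0.0027 (2 h less naive, weeks 1 and 3) and -0.50 to -0.37 (R 3w 2 h), and for the difference between lines from -0.28 to -0.020 (chronic 3w) and -0.25 to -0.091 (naive 24 h). Depth limits low genes most, since Insig1 had a median of 7 counts per library in CT26.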
